A study of Mus musculus with 4 samples.

Results

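The genes examined here are 10 core genes of JAK-STAT signaling and of its negative feedback, chosen by name as members of the pathway. They are the kinase genes *Jak1* and *Jak2*, the transcription factor genes *Stat3*, *Stat5a*, *Stat5b* and *Stat6*, the feedback inhibitor genes *Socs1*, *Socs3* and *Cish*, and the STAT target *Pim1*. All 10 were found among the 17104 genes measured. Their RNA was compared between 2 CD37 fl/fl and 2 CD37 -/- libraries of bone marrow leukemic stem cells (LSCs), sorted as YFP+, c-kit+ cells from mice with MLL-AF9 acute myeloid leukemia (AML), 6 weeks after the secondary transplantation. CD37 is a tetraspanin, a membrane protein of leukocytes, and MLL-AF9 is a fusion oncogene of human AML that was carried into lineage-negative marrow cells by a retrovirus with the YFP reporter. All 4 libraries came from male C57 mice, and both groups descend from cells with floxed *Cd37* alleles and a tamoxifen-inducible Cre expressed from the Rosa26 locus, which is active in nearly all cell types. Tamoxifen was given for CD37 -/- and corn oil for CD37 fl/fl, which the sample titles call WT. The recipients were irradiated but keep cells of their own, and how many animals went into a library was not given in the sources used here.

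Cytokine receptors such as those for IL-3, GM-CSF, G-CSF and interferons have no kinase of their own. JAK kinases bound to them phosphorylate the receptor and then the STAT factors, which enter the nucleus and bind DNA. STAT5 and STAT3 serve the growth, survival and maturation of myeloid cells. STAT factors also switch on their own inhibitors: CIS (the product of *Cish*) and SOCS1 and SOCS3 bind activated receptors or JAK kinases and shut the signal off. PIM1 is a kinase that promotes survival and whose gene is a common STAT target. The activity of the pathway lies in phosphorylation, which RNA levels do not show.

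Levels are given as FPKM per kilobase of exons, so that they can be compared between genes. Differences are given as log2 fold changes, CD37 -/- against CD37 fl/fl, on the log2(FPKM + 1) scale, a scale on which low genes appear to change less than they do. They were tested with limma over the 10553 genes with a mean of at least 1 (two-sided, Benjamini-Hochberg adjustment over all of them). The deposited scaling implies 15327357 and 17327701 reads for CD37 fl/fl, and 17740457 and 22627491 for CD37 -/-. *Cd37* was lower in both CD37 -/- libraries (36.1 and 35.7, against 88.2 and 72.8 in CD37 fl/fl), at 0.446 times the CD37 fl/fl mean (adjusted p = 0.0771). Only some exons of *Cd37* were floxed, and the origin of the reads that were left was not analysed here. The series' design text calls the 2 replicates of each genotype independent, and p-values measure the spread between these samples.

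Because *Cish* and *Socs3* are classic STAT targets, the 300 bases around each RefSeq start of the 10 genes (GRCm38.p6) were searched for TTCNNNGAA, the letters that most STAT factors prefer, which read the same on both strands. Of the 13 promoters of these genes, 2 held it, one of *Cish* and one of *Socs3*, against 8.3% of all 32851 promoters of that length. The form with 1 more N between TTC and GAA, which STAT6 prefers, was in 0 of the 13 and in 6.95% of all promoters. The 2 stretches are shown because they are the only ones with these letters in the windows searched, written along the gene's own strand with the TTCNNNGAA letters in capitals.
*Cish*, chr9:107296654-107296683, plus strand: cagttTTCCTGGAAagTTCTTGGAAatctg
*Socs3*, chr11:117969502-117969531, minus strand: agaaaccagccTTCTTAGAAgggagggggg
The *Cish* stretch held the letters 2 times, first at the RefSeq start itself and again 11 bases further into the gene. In the GENCODE M21 annotation it lies in the untranslated part of exon 1 of the transcript *Cish*-201. The *Socs3* letters began 154 bases before the RefSeq start, outside the exons but within the span of the transcript *Socs3*-202. Binding was not measured here.

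In all 6 of the kinase and STAT genes, both CD37 -/- libraries lay above both CD37 fl/fl libraries. At an unadjusted p under 0.05, 5 of the 9 tested genes were higher in CD37 -/- (*Jak1*, *Jak2*, *Stat3*, *Stat5a* and *Stat6*, but not *Stat5b*, *Socs1*, *Socs3* or *Pim1*) and 0 were lower, against 18.5% of all tested genes higher and 6.52% lower, or 25% in either direction. At an adjusted p under 0.05, 0 of the 9 passed in limma, against 0.152% of all tested genes. Of the 9 tested genes, 7 did not overlap between the groups and were higher in CD37 -/-, where 42.3% of all tested genes were so, and 0 were lower without overlap, against 19.7%. On the log2 scale the 9 genes had a median difference of 0.72, and all tested genes one of 0.19. Without CD37 -/- replicate 2 the count of 5 fell to 0, and after quantile normalization to 1. Whether the kinase and STAT genes differed from the feedback genes in their response was not tested. Since these are sorted populations, more cells with a transcript and more RNA per cell cannot be told apart.

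**Figure D1:**
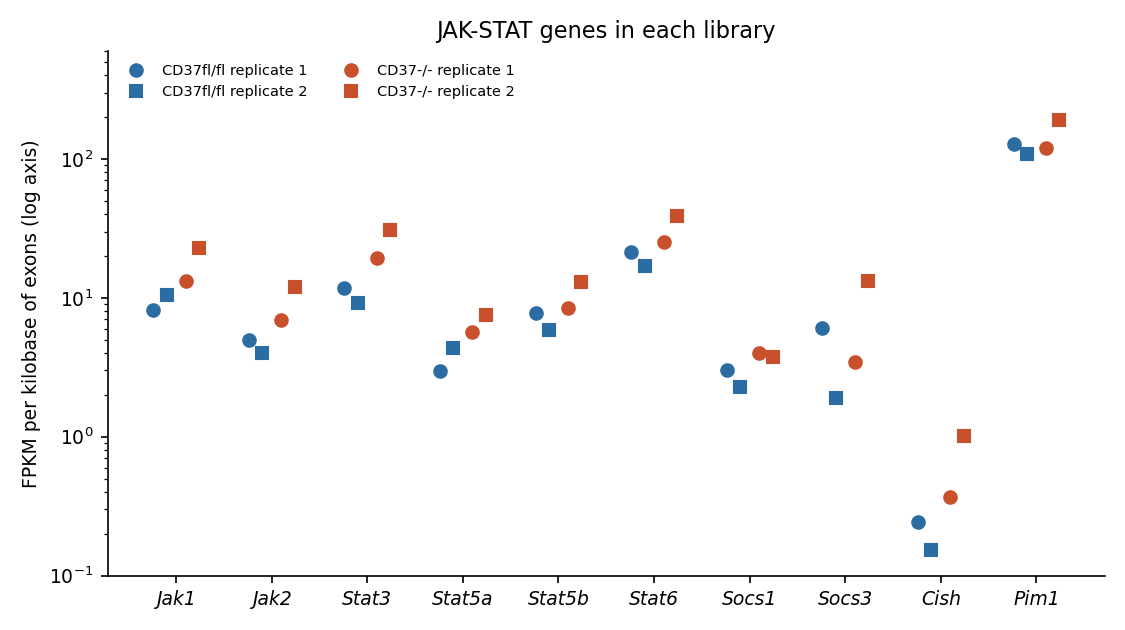
Level of each of the 10 genes in each library, as FPKM per kilobase of exons on a log axis. Circles are replicate 1 and squares replicate 2, blue CD37 fl/fl and red CD37 -/-. The red points stand above both blue points in 8 of the 10 genes, and not in *Socs3* and *Pim1*. Of all tested genes, 42.3% were higher in CD37 -/- without overlap, and *Cish* was not among the genes tested.

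Both kinase genes were higher at the unadjusted threshold, *Jak1* at 1.94 times and *Jak2* at 2.11 times the CD37 fl/fl mean. *Jak1* (ENSMUSG00000028530, chr4:101152367-101265282 in GRCm38), which serves interferon and gp130 receptors among others, was at 8.22 and 10.4 in CD37 fl/fl and at 13.2 and 22.9 in CD37 -/-. *Jak2* (ENSMUSG00000024789, chr19:29251828-29313080), the kinase of the IL-3, GM-CSF, erythropoietin and thrombopoietin receptors, was at 4.95 and 3.99 in CD37 fl/fl and at 6.96 and 11.9 in CD37 -/-. In both genes CD37 -/- replicate 2 was the highest library by a wide margin, and replicate 1 still exceeded both controls. The log2 fold change was 0.84 for *Jak1* (standard error 0.31, 95% interval 0.10 to 1.59, adjusted p = 0.165) and 0.89 for *Jak2* (standard error 0.30, 0.17 to 1.62, adjusted p = 0.143). *Jak1* was no longer under the unadjusted threshold of 0.05 without CD37 fl/fl replicate 1 (log2 fold change 0.69) or without CD37 -/- replicate 2 (0.47), nor *Jak2* without CD37 fl/fl replicate 2 (0.77) or without CD37 -/- replicate 2 (0.55).

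*Stat3* had the highest log2 fold change of the 9 tested JAK-STAT genes. STAT3 carries signals of IL-6 type cytokines and G-CSF. *Stat3* (ENSMUSG00000004040, chr11:100885098-100939540) was at 11.8 and 9.14 in CD37 fl/fl and at 19.2 and 31.0 in CD37 -/-, 2.40 times the CD37 fl/fl mean. Both CD37 -/- libraries stood well above the controls, although they differed from each other. Its log2 fold change was 1.16 (standard error 0.30, 0.45 to 1.86, adjusted p = 0.104), and it was the only one of the 9 tested genes to keep an unadjusted p under 0.05 after quantile normalization (0.99). Without CD37 -/- replicate 2 it was 0.83 and no longer under that threshold (adjusted p = 0.487).

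*Stat5a* and *Stat5b* encode closely related factors downstream of IL-3 and GM-CSF and are neighbours of *Stat3* on chromosome 11. *Stat5a* (ENSMUSG00000004043, chr11:100859351-100885169) was at 2.95 and 4.33 in CD37 fl/fl and at 5.71 and 7.52 in CD37 -/-. *Stat5b* (ENSMUSG00000020919, chr11:100780731-100850724) was at 7.73 and 5.90 in CD37 fl/fl and at 8.41 and 13.1 in CD37 -/-. Neither overlapped between the groups, but for *Stat5b* the gap between CD37 fl/fl replicate 1 and CD37 -/- replicate 1 was small. *Stat5a* had a log2 fold change of 0.72 (standard error 0.27, 0.07 to 1.37, adjusted p = 0.174) and *Stat5b* of 0.57 (standard error 0.29, -0.12 to 1.25, adjusted p = 0.259). With 1 library left out, *Stat5a* stayed under the unadjusted threshold only where that library was CD37 fl/fl replicate 2. It was at 0.51 without CD37 fl/fl replicate 1, at 0.89 without CD37 -/- replicate 1 and at 0.55 without CD37 -/- replicate 2. *Stat5a* and *Stat3* run on opposite strands and share 72 bases, and 8626 bases lie between *Stat5b* and *Stat5a*. The kit marks the strand, but whether counting used it was not given in the sources used here. Reads that fit both *Stat5a* and *Stat5b* could have been counted for either or dropped, so the split between these paralogs is uncertain.

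*Stat6* encodes the factor of IL-4 and IL-13 signaling. *Stat6* (ENSMUSG00000002147, chr10:127642986-127660957) was at 21.3 and 16.9 in CD37 fl/fl and at 25.2 and 38.7 in CD37 -/-. Again CD37 -/- replicate 2 was the highest library. The log2 fold change was 0.69 (standard error 0.28, 0.02 to 1.37, adjusted p = 0.193). The unadjusted p was only just under the threshold. It was above it without CD37 fl/fl replicate 2 (log2 fold change 0.54), without CD37 -/- replicate 2 (0.39) and with the replicate number as a block. The same held on the deposited scale per gene span, with no minimum level, with eBayes without trend and after quantile normalization.

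Of the feedback inhibitors, *Socs1* and *Socs3* did not pass the test with all 4 libraries, and *Cish* was below its minimum level. *Socs1* (ENSMUSG00000038037, chr16:10782240-10785536), which blocks JAK kinases mainly in interferon signaling, was at 3.03 and 2.28 in CD37 fl/fl and at 3.97 and 3.74 in CD37 -/-. It was higher without overlap, and here CD37 -/- replicate 2 was not the highest library. On the log2 scale it differed by 0.42 (standard error 0.25, -0.18 to 1.01, adjusted p = 0.324). *Socs3* (ENSMUSG00000053113, chr11:117966079-117970047), the inhibitor of gp130 and G-CSF receptor signaling, was at 6.03 and 1.90 in CD37 fl/fl and at 3.43 and 13.2 in CD37 -/-. Replicates of one genotype differed more than the genotype means did, 3.86-fold within CD37 -/- against 2.10-fold between the means. The log2 fold change of *Socs3* was 0.82 with a standard error of 0.62 (-0.67 to 2.30, adjusted p = 0.428). It was 1.66 without CD37 -/- replicate 1 (adjusted p = 0.178) and -0.03 without CD37 -/- replicate 2 (adjusted p = 0.992), so that its direction rested on CD37 -/- replicate 2.

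*Cish* (ENSMUSG00000032578, chr9:107296026-107302784), an inhibitor that STAT5 induces, was the least abundant of the 10 genes. It was at 0.244 and 0.153 in CD37 fl/fl and at 0.369 and 1.01 in CD37 -/-, from 24, 17, 42 and 146 reads in the same order. Its mean of 0.443 lay below the minimum of 1, so it was not among the genes tested. The groups did not overlap, and CD37 -/- replicate 2 held most of the reads. With no minimum, the log2 fold change of *Cish* was 0.47 (standard error 0.20, -0.06 to 1.00, adjusted p = 0.298). Without CD37 -/- replicate 1 it was 0.74, under the unadjusted threshold, and without CD37 -/- replicate 2 it was 0.19, above it. On recovered reads with limma-voom, a scale that does not flatten low genes, it was 1.68 (standard error 0.71, 0.04 to 3.32, adjusted p = 0.189, unadjusted p under the threshold). *Cish* shares 1167 bases with *Gm17040* on the opposite strand, which had 4, 0, 2 and 4 reads.

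*Pim1* (ENSMUSG00000024014, chr17:29490753-29496112) was the most abundant of the 10 genes, at 129 and 109 in CD37 fl/fl and at 120 and 191 in CD37 -/-. The groups overlapped, since CD37 -/- replicate 1 lay between the 2 controls. The log2 fold change of *Pim1* was 0.35 (standard error 0.30, -0.37 to 1.07, adjusted p = 0.482), and 0.02 without CD37 -/- replicate 2. At the depth of this gene, 6348 to 14497 reads per library, counting error is small against this spread. *Gm26885*, antisense to *Pim1* over 1173 bases, had 14 to 27 reads.

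**Figure D2:**
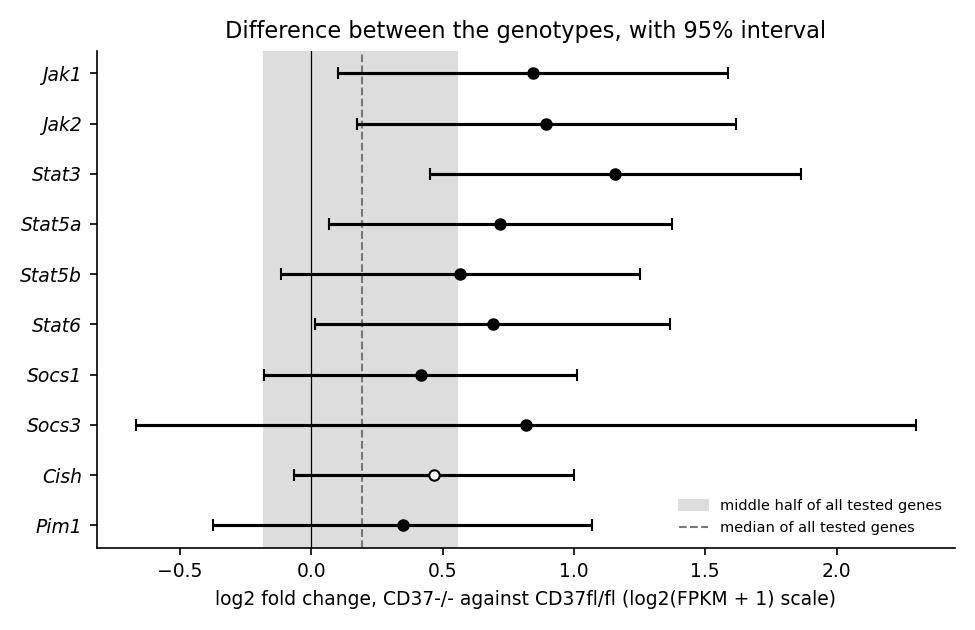
Log2 fold change of each gene, CD37 -/- against CD37 fl/fl, on the log2(FPKM + 1) scale, with its 95% interval from limma. The grey band runs from -0.18 to 0.56, the quartiles of all tested genes, and the dashed line is their median of 0.19; the open circle is *Cish*, fitted without a minimum level, and the intervals of *Jak1*, *Jak2*, *Stat3*, *Stat5a* and *Stat6* lie above 0.

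CD37 -/- replicate 2 carried much of these differences. It exceeded CD37 -/- replicate 1 in 9 of the 10 genes, where 58.7% of all tested genes did so. CD37 fl/fl replicate 1 exceeded replicate 2 in 8 of the 10 genes, against 39.8% of all tested genes. Without CD37 -/- replicate 2, 0 of the 9 tested genes reached an unadjusted p under 0.05 in limma (7.28% of all tested genes were then higher at that threshold), although 8 of the 9 remained above 0. Without CD37 -/- replicate 1, 4 genes of the *Jak* and *Stat* groups stayed at a p under 0.05, namely *Jak1*, *Jak2*, *Stat3* and *Stat6*, and *Socs3* joined them (15.4% of all tested genes). The scaling mattered too: after quantile normalization, which takes the median of all tested genes to -0.01, the 9 genes were all still above 0 with a median of 0.53, but only *Stat3* passed, against 11% of all tested genes that were higher. With TPM rescaling, which takes that median to 0.43, *Stat3* had an adjusted p of 0.0452 and 25.6% of all tested genes were higher at an unadjusted p under 0.05. With limma-voom on recovered reads, 6 of the 10 genes were higher at an unadjusted p under 0.05, *Cish* among them, against 19.1% of all genes tested that way.

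**Figure D3:**
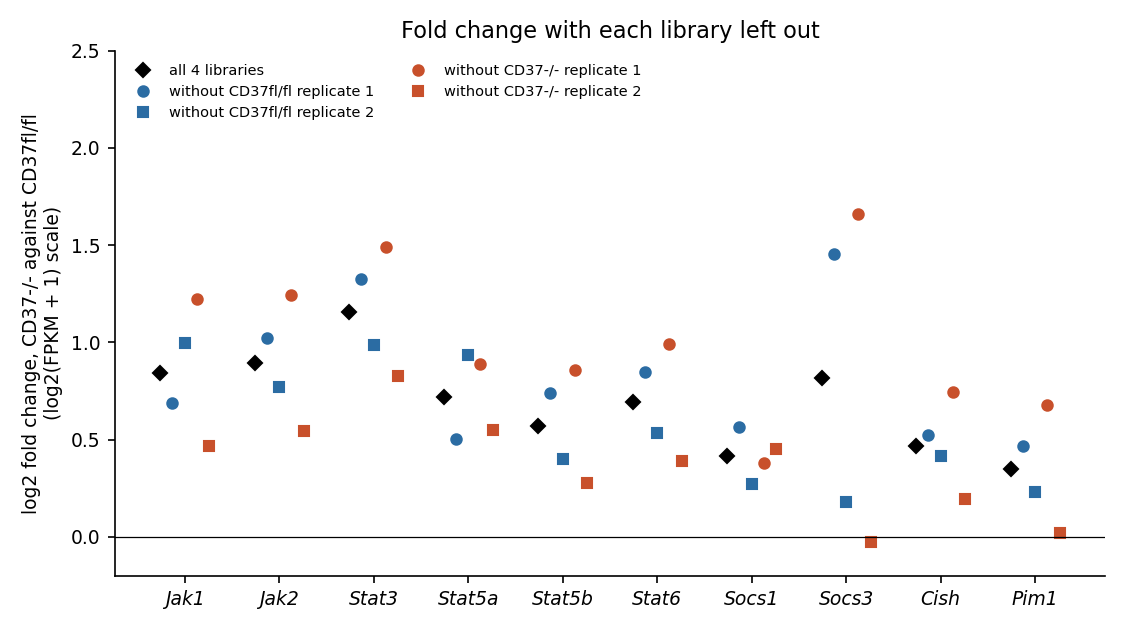
Log2 fold change of each gene with all 4 libraries (black) and with each library left out in turn, on the log2(FPKM + 1) scale, *Cish* without a minimum level. Red squares, without CD37 -/- replicate 2, are the lowest point in 8 of the 10 genes, the exceptions being *Stat5a* and *Socs1*, and the square of *Socs3* lies at -0.03.

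The STAT genes did not keep one proportion to each other. *Stat3* was 1.53 and 1.55 times *Stat5b* in the CD37 fl/fl libraries, but 2.29 and 2.37 times in the CD37 -/- libraries. Replicates lay close in this ratio, and the genotypes lay apart. The ratio of *Jak1* to *Jak2* was 1.66 and 2.61 in CD37 fl/fl against 1.90 and 1.93 in CD37 -/-, and that of *Stat5b* to *Stat5a* was 2.62 and 1.36 against 1.47 and 1.74. Both of these overlapped between the genotypes. *Socs3* relative to *Stat3* was 0.509 and 0.207 in CD37 fl/fl against 0.178 and 0.427 in CD37 -/-, and *Cish* relative to *Stat5a* was 0.0826 and 0.0353 against 0.0646 and 0.134. The inhibitor to STAT ratios also overlapped between the genotypes. These ratios are descriptions of 4 libraries and were not tested, and their size, unlike their change between libraries, depends on the exon lengths used.

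In mean level over the 4 libraries the order was *Pim1* (137), *Stat6* (25.5), *Stat3* (17.8), *Jak1* (13.7), *Stat5b* (8.77), *Jak2* (6.96), *Socs3* (6.15), *Stat5a* (5.13), *Socs1* (3.26) and *Cish* (0.443). *Pim1* was above *Stat6*, *Stat6* above *Stat3*, *Jak1* above *Stat5b*, *Stat5b* above *Jak2* and *Socs1* above *Cish* in all 4 libraries. *Stat3* was above *Jak1*, and *Stat5a* above *Socs1*, in 3 of 4. *Socs3* could not be placed, since it was above *Stat5a* in 2 of the 4 libraries and below *Jak2* in 2. Part of this order depends on the length behind the FPKM. Per kilobase of the longest coding transcript, a scale chosen after seeing the data, *Stat6* was above *Stat3* in 2 of the 4 libraries only (29.4 against 30.3 and 45.2 against 48.9 in CD37 -/-). *Stat5a* then had a mean of 9.41 and *Stat5b* one of 9.32, each above the other in 2 of the 4 libraries.

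The pattern over the 4 libraries was most alike for *Stat6* and *Stat5b*, with a distance of 0.125 between their log2 levels after each gene's mean was taken off. *Socs3* stood apart from the rest, with *Jak2* as its nearest gene at a distance of 1.01. Among the 4811 genes with a mean of at least 10, those most like *Stat3* were *Map3k3* (distance 0.0670), *Arap1* (0.123) and *Efhd2* (0.132), and those most like *Jak2* were *Pik3ap1* (0.0789), *Msn* (0.116) and *Prkcd* (0.135). *Map3k3* was at 6.86 and 5.39 in CD37 fl/fl and at 11.3 and 19.6 in CD37 -/-. With 4 libraries such likeness is a description only.

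The rest of the pathway was read from 66 other genes, of which 64 were measured and 54 tested. Of the 54, 11 were higher and 2 lower in CD37 -/- at an unadjusted p under 0.05, near the 18.5% and 6.52% of all tested genes, and 0 passed an adjusted p under 0.05 in limma. Their median log2 fold change was 0.32, against 0.72 for the 9 tested core genes and 0.19 for all tested genes. Without CD37 -/- replicate 2, 7 of the 54 had an unadjusted p under 0.05, and 10.5% of all tested genes did. The plot of the pathway lists shows each gene.

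**Figure D4:**
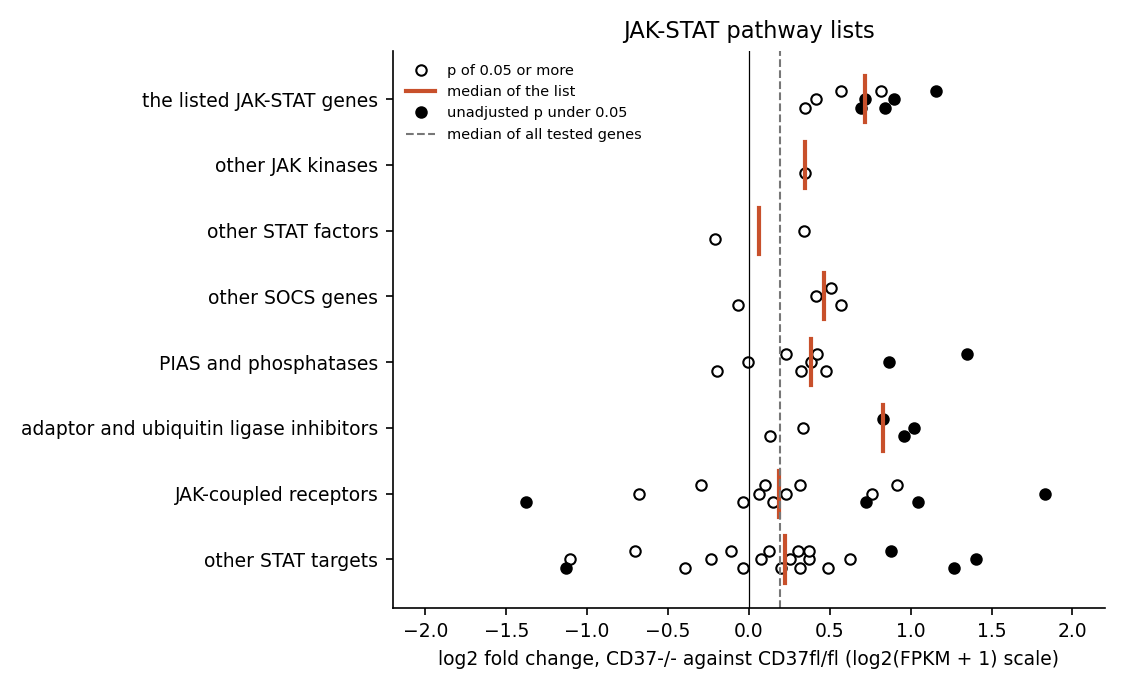
Log2 fold change of every tested gene of the pathway lists, CD37 -/- against CD37 fl/fl, on the log2(FPKM + 1) scale. Filled points have an unadjusted p under 0.05, red bars are list medians and the dashed line is the median of all tested genes (0.19); the adaptor and ligase list has the highest median (0.83), and *Il3ra* (-1.38) and *Csf2ra* (1.83) are the ends of the receptor list.

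Outside the 10 genes, *Jak3* and *Stat2* did not reach an unadjusted p under 0.05 in limma. *Jak3*, the kinase of the common gamma chain, had a log2 fold change of 0.35 (adjusted p = 0.401). *Stat2*, which serves type I interferon signaling, had a log2 fold change of 0.34 (adjusted p = 0.455). *Tyk2* stayed under the minimum level, from 11 and 6 reads in the controls and 22 and 90 reads in CD37 -/-. Whether these genes differed from the examined ones in their response was not tested.

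Among receptors, 3 of 14 tested genes were higher and 1 was lower at that threshold, near the shares of all tested genes (18.5% and 6.52%). *Csf2ra*, the alpha chain of the GM-CSF receptor, was at 46.8 and 39.8 in CD37 fl/fl and at 124 and 197 in CD37 -/- (log2 fold change 1.83, standard error 0.30, adjusted p = 0.0623). *Il3ra*, the alpha chain of the IL-3 receptor, went the other way, with 44.6 and 37.6 against 16.1 and 14.3 (-1.38, standard error 0.23, adjusted p = 0.0623). Both alpha chains use the beta chain of *Csf2rb*, which binds JAK2 and was at 33.1 and 18.3 against 43.1 and 62.8 (1.05, adjusted p = 0.137). *Ifnar2*, a chain of the type I interferon receptor, had a log2 fold change of 0.73 (adjusted p = 0.182). The median of the receptor list was 0.19, close to that of all tested genes.

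The other regulators listed are not all inhibitors. Of them, the adaptors and ubiquitin ligases had 3 of 5 tested genes higher at that threshold and the PIAS proteins and phosphatases 2 of 9. The other SOCS genes had 0 of 4, where 18.5% of all tested genes were higher. *Sh2b3* (LNK), which restrains JAK2, was at 3.86 and 4.54 in CD37 fl/fl and at 7.40 and 12.2 in CD37 -/- (1.02, adjusted p = 0.114). *Sh2b1*, an adaptor of the same family that binds JAK2 and can raise its activity, had a log2 fold change of 0.96 (adjusted p = 0.0989), and *Cbl*, a ubiquitin ligase for activated receptors, of 0.83 (adjusted p = 0.157). *Ptprc*, which encodes CD45, a phosphatase that can act on JAK kinases, was at 4.72 and 5.18 in CD37 fl/fl and at 10.98 and 18.0 in CD37 -/- (1.35, adjusted p = 0.0827). *Ptpn11* encodes SHP2, a phosphatase that mostly promotes RAS signaling, and had a log2 fold change of 0.87 (adjusted p = 0.143). *Socs7* came closest among the SOCS genes with 0.57 (adjusted p = 0.214), and *Socs6* had 0.51 (adjusted p = 0.271).

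Known STAT targets other than *Cish*, *Socs1*, *Socs3* and *Pim1* were 20 tested genes, of which 3 were higher and 1 lower at that threshold, no more than the 18.5% and 6.52% of all tested genes, with a median of 0.23. *Icam1*, an adhesion molecule, was at 1.36 and 1.92 in CD37 fl/fl and at 5.09 and 6.92 in CD37 -/- (1.40, adjusted p = 0.0702). *Gfi1*, a repressor needed for granulocyte maturation, was at 48.6 and 56.9 against 128 and 128 (1.27, adjusted p = 0.0655). *Ccnd3*, a D-type cyclin, had a log2 fold change of 0.88 (adjusted p = 0.188). *Bcl2*, which protects from apoptosis, was at 2.14 and 6.19 in CD37 fl/fl and at 1.06 and 1.29 in CD37 -/-, and its log2 fold change was -1.13 (adjusted p = 0.162).

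Gene length moved with the fold changes. All tested genes were split into 5 classes of equal size by exon length, from 70 to 1754 bases up to 6885 to 41324 bases, and the class medians of the log2 fold change were -0.13, 0.03, 0.23, 0.29 and 0.35. *Jak1*, *Stat3* and *Stat5a* are in the longest class, *Jak2* and *Stat5b* in the next, *Stat6* and *Pim1* in the middle and *Socs1* and *Socs3* in the second shortest. All 9 genes lay above the median of their own class, by 0.12 for *Pim1* up to 0.81 for *Stat3*, and *Socs3* stood 0.78 above. The part of length in the fold changes of the JAK and STAT genes was not tested.

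**Figure D5:**
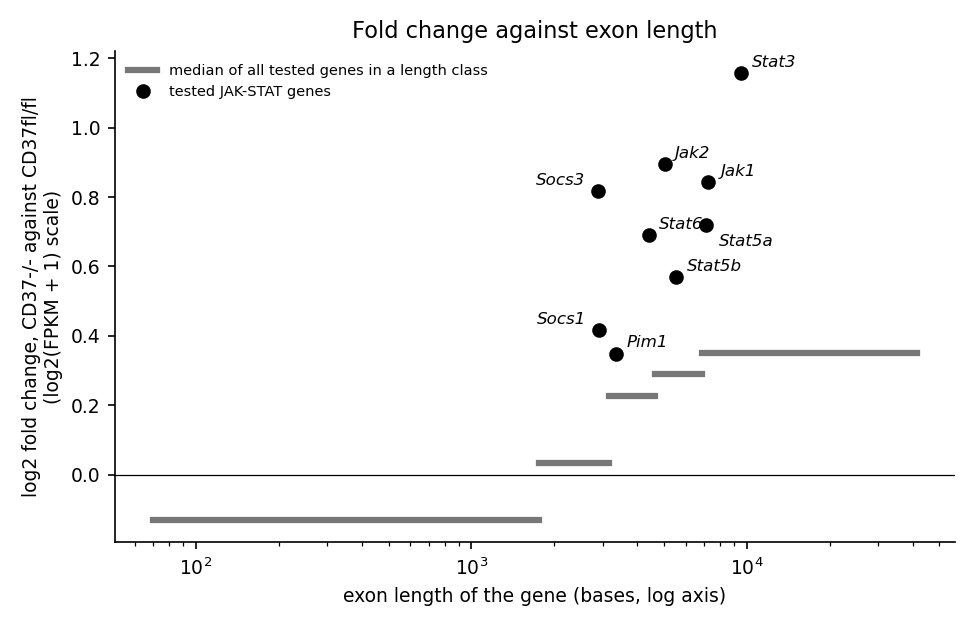
Log2 fold change, CD37 -/- against CD37 fl/fl on the log2(FPKM + 1) scale, against the exon length of the gene in bases (log axis). Points are the 9 tested genes and grey bars the medians of all tested genes in the 5 classes of exon length, which go from -0.13 to 0.35; every point lies above the bar of its class.

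The summed markers of neutrophils, erythroid cells and B cells did not overlap between the genotypes, and those of the other lists did. The summed level of 7 of 7 neutrophil markers was 5731 and 905 in CD37 fl/fl against 10051 and 7249 in CD37 -/-, nearly all of it *Camp* and *Ngp*, and that of 7 of 8 erythroid markers, mostly globins, was 90.1 and 8.09 against 917 and 238. Both sums were higher in both CD37 -/- libraries, and their part in the higher JAK and STAT levels was not tested. Gene by gene, 4 of the 7 neutrophil markers were higher in CD37 -/- without overlap (*Ltf*, *Ngp*, *Mmp9* and *Cxcr2*), against 42.3% of all tested genes. *Camp*, *Lcn2* and *Mmp8* overlapped. All 7 erythroid markers were higher without overlap, though only 4 of them reached the minimum level. CD37 -/- replicate 2 exceeded replicate 1 in 3 of the 7 neutrophil markers (*Mmp8*, *Mmp9* and *Cxcr2*) and in 1 of the 7 erythroid markers, against 58.7% of all tested genes. It also did so in 7 of 7 macrophage and dendritic cell markers and 4 of 4 megakaryocyte markers, as in 9 of the 10 JAK-STAT genes. The part of such markers in the levels of replicate 2 was not tested. For 9 of 10 markers of the leukemia cells the sum was 589 and 427 against 471 and 472. Of these 9, 5 were higher in CD37 -/- without overlap, against 42.3% of all tested genes, with *Kit* at 1.56 and 2.98 against 3.00 and 3.99. *Mpo* was lower without overlap, at 254 and 163 against 109 and 65.7, and *Spi1*, *Csf1r* and *Hoxa9* overlapped. Macrophage and dendritic cell markers (7 of 7) summed to 207 and 40.7 against 26.1 and 71.3, and megakaryocyte markers (4 of 5) to 11.6 and 5.61 against 8.95 and 20.96. B cell markers (4 of 5) summed to 30.9 and 36.9 against 20.6 and 16.2, nearly all of it *Cd79b*, with *Pax5* at 0 in CD37 fl/fl replicate 2. T and NK cell markers (4 of 6) summed to 1.02 to 2.45 in all libraries, with *Cd3g* at 0 in both CD37 fl/fl libraries.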

How the data were processed

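Poly(A) RNA was sequenced as stranded libraries. The authors deposited FPKM values per gene and library, not log-transformed and not pooled. The submitters' processing notes name fastp 0.20.1, STAR 2.7.7a, featureCounts 2.0.0, edgeR and mm39; the annotation and gene length are not given in the sources used here. With the gene spans (introns included) of GENCODE M21 on GRCm38, 99.0% of the values of each library came out as whole reads (within 0.05, which chance meets for 10%), against 10.9% to 11.5% of low values with exon length. Coordinates are therefore GRCm38. Deposited FPKM was rescaled by span over exon length, so that long introns do not lower the values. Counting intervals were not used, since the spread of recovered reads between replicates exceeded counting error (chi-square per degree of freedom 101.8 and 66.5).

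log2(FPKM + 1) was fitted for genes whose mean was 1 or more with lmFit and eBayes with a trend (limma 3.58.1, R 4.3.3), without a replicate block, with a threshold of 0.05. The code was tested on simulated data. The genes and lists were chosen with earlier results of these data known. Of the pathway lists, genes with an unadjusted p under 0.05 and the 2 largest changes per list were named. Values of some list members are not reported here. Likeness is the Euclidean distance between centred log2 levels. Alternatives were the deposited scale, a pseudocount of 0.1, no filter, quantile normalization, TPM rescaling, limma-voom on recovered reads with a mean of at least 10, eBayes without trend or robust, the replicate block and each library left out. *Cish* without a filter was also fitted with a pseudocount of 0.1 and with each library left out, chosen after seeing the data.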

Additional observations from a re-analysis of the deposited data

How the results depend on the processing

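With 2 libraries per genotype, a fold change on this scale rests on few values, and the calls of the JAK and STAT genes are at unadjusted p. With a library left out, the lone sample of its group is assumed to vary like the other group. The count of 5 core genes at an unadjusted p under 0.05 became 2 (of 6 tested) on the deposited scale per gene span, 3 (of 10) with no filter and 1 with quantile normalization, and ran from 0 to 5 with each library left out, 0 being without CD37 -/- replicate 2. Of all genes, in either direction, 1642 of 6737 were under that unadjusted threshold per gene span and 3206 of 16913 with no filter. After quantile normalization 2317 of 10553 were. At an adjusted p under 0.05, 0 core genes became 1 (*Stat3*, adjusted p = 0.0452) with TPM rescaling. The count of 13 other pathway genes ran from 7 to 15 with each library left out.

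Over all genes, 16 with an adjusted p under 0.05 became 37 per gene span, 626 with TPM rescaling and 124 with robust eBayes, and 0 with a pseudocount of 0.1, no filter, quantile normalization, limma-voom, eBayes without trend and the replicate block; it ran from 0 to 67 with each library left out. The 2639 genes at an unadjusted p under 0.05 became 1642 per gene span and ran from 1106 to 2397 with each library left out. Of these genes 73.9% were higher in CD37 -/-, 50.0% after quantile normalization and 88.2% with TPM rescaling. The median of all genes was at 0.19, -0.01 and 0.43 (log2) under these scalings.

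Of 120 alternative fold changes of the 10 genes, 96 kept their direction and side of the threshold, 19 lost an unadjusted p under 0.05, 4 gained one and 1 reversed, *Socs3* at -0.026 without CD37 -/- replicate 2 (its range with each library left out was -0.026 to 1.658). The cause was not tested. The labels do not say that replicate numbers pair the samples, and the differences between replicates 1 and 2 had a correlation of -0.07 between the genotypes over 10553 genes. With the replicate block, 4 of the 9 genes had a p under 0.05, *Stat6* being lost. In either direction, 2564 of all 10553 tested genes were then below that threshold.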

Other observations

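*Usp18*, an interferon-induced gene whose product restrains type I interferon receptor signaling, was below the minimum level and is named after its values were seen. It was at 0.281 and 0.145 FPKM per kilobase of exons in CD37 fl/fl and at 0.727 and 2.72 in CD37 -/-, from 12, 7, 36 and 172 reads. The fit with no minimum gave a log2 fold change of 1.07 (standard error 0.39, adjusted p = 0.253). As for *Cish* and *Tyk2*, CD37 -/- replicate 2 held most of the reads.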
